A study of Mus musculus with 4 samples.

Results

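CSF1 and IL-34 are the 2 secreted ligands of CSF1R, the receptor tyrosine kinase that macrophages and their precursors depend on for survival and growth. CX3CL1 (fractalkine) is a membrane-bound chemokine that can be shed and that binds CX3CR1 on monocytes and macrophages, and MIF is a small cytokine that acts on macrophages through CD74 and its partners. In peripheral nerve, macrophages enter the distal segment after injury and help to clear degenerating axons and myelin, and a smaller resident population is present in intact nerve. The genes of these 4 ligands (Csf1, Il34, Mif and Cx3cl1) and 2 receptors (Csf1r and Cx3cr1) were described here in the cells of the mouse sciatic nerve. They were found by their symbols, and all 6 were listed in each of the 4 count tables, out of 22716 genes listed in at least 1 of them. In the mouse genome build mm10, Csf1 lies on the minus strand at chr3:107741048-107760469, Il34 on the minus strand at chr8:110741829-110805924, Mif on the minus strand at chr10:75859353-75860240, Cx3cl1 on the plus strand at chr8:94772009-94782427 and Cx3cr1 on the minus strand at chr9:119901616-120069879, by the GENCODE annotation.

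The cells came from wildtype CD1 mice and were profiled by Drop-seq, a droplet method that counts transcripts by unique molecular identifiers (UMIs). One library held distal nerve of adult mice 3 days post injury (3 DPI) by resection, and 1 held uninjured nerve of adult mice. Of the neonatal libraries, 1 was sorted by FACS at postnatal day 3 to 4 for nucleated cells that excluded a dye for dead cells, and 1 was taken at postnatal day 2 to 3. This last and both adult libraries were cleared with myelin removal beads. Each condition was thus 1 library, and cells are not replicates, so no test between conditions was made. The number of animals pooled in a library is not given in the labels. The age and the preparation of the neonatal libraries cannot be told apart.

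After filtering, 2189 cells at 3 DPI, 1843 from uninjured nerve, 2216 from the neonatal FACS library and 5422 from the neonatal beads library were kept, and their median depths were 1821, 1632, 1573 and 997 UMIs. Clusters were named from marker genes, since no cell annotation by the authors entered the work, and the 6 genes took no part in the clustering. The classes were endoneurial-like, epineurial-like, perineurial-like and other mesenchymal-like cells, Schwann-like cells, endothelial-like cells, vascular smooth muscle (VSM)/pericyte-like cells and immune cells. Levels are CPM, the UMIs of a gene in each 1000000 UMIs of a class, with exact Poisson 95% intervals. Shares of cells with a UMI have exact Clopper-Pearson 95% intervals. Both intervals, and those of ratios, cover counting error only. Pairs of libraries shared at most 1 barcode among the kept cells.

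Csf1 mRNA was highest in epineurial-like cells among the non-immune classes of every library. These are the fibroblasts of the outer nerve sheath. Their level was 298 CPM at 3 DPI (interval 268 to 331, 346 UMIs in 438 cells), 241 in uninjured nerve (209.7 to 276, 210 UMIs in 376 cells), 189.5 in the neonatal FACS library (153 to 232) and 159 in the neonatal beads library (105 to 231). At 3 DPI, 42.9% of epineurial-like cells had a Csf1 UMI (38.2 to 47.7), against 1.99% of macrophage/monocyte-like cells (0.863 to 3.88) and 1.33% of lymphoid-like cells (0.0338 to 7.21). The median depths of these classes were 2134, 977 and 731 UMIs per cell. Among cells thinned to 500 UMIs the epineurial-like share was 11.2% at 3 DPI and 12.6% in uninjured nerve, and that of 3 DPI macrophage/monocyte-like cells was 1.15%.

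Within the epineurial-like cells at 3 DPI, the cluster led by Cxcl13, Smpd3 and Pi16 held 404 CPM of Csf1 (355 to 458, 261 cells) and the cluster led by Inmt and Comp held 183 (149 to 222, 177 cells). In uninjured nerve the corresponding values were 279.6 (208 to 368, 93 cells) and 231 (196.5 to 269.9, 283 cells), whose intervals overlap. The 483 other mesenchymal-like cells, which were found only in the 3 DPI library, had 154 CPM (138.5 to 170.4). This class joins a cluster of 330 cells led by Dlk1 and a cluster of 153 cells led by Serpinb2 and genes of cell division, and their levels of 160 (138 to 185) and 148 CPM (127 to 171) did not differ beyond their intervals.

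The remaining non-immune classes of adult nerve held Csf1 at between 45.0 and 90.8 CPM. At 3 DPI, the Schwann-like (90.8), VSM/pericyte-like (86.7), endoneurial-like (86.0) and endothelial-like cells (80.5) had levels with overlapping intervals. In uninjured nerve the order was endothelial-like cells at 83.5 CPM, Schwann-like at 74.2, VSM/pericyte-like and perineurial-like both at 59.6, and endoneurial-like at 45.0 (33.2 to 59.6), of which the first and the last did not overlap. In the other non-immune classes, neonatal levels of Csf1 ran from 14.4 to 45.9 CPM.

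**Figure D1:**
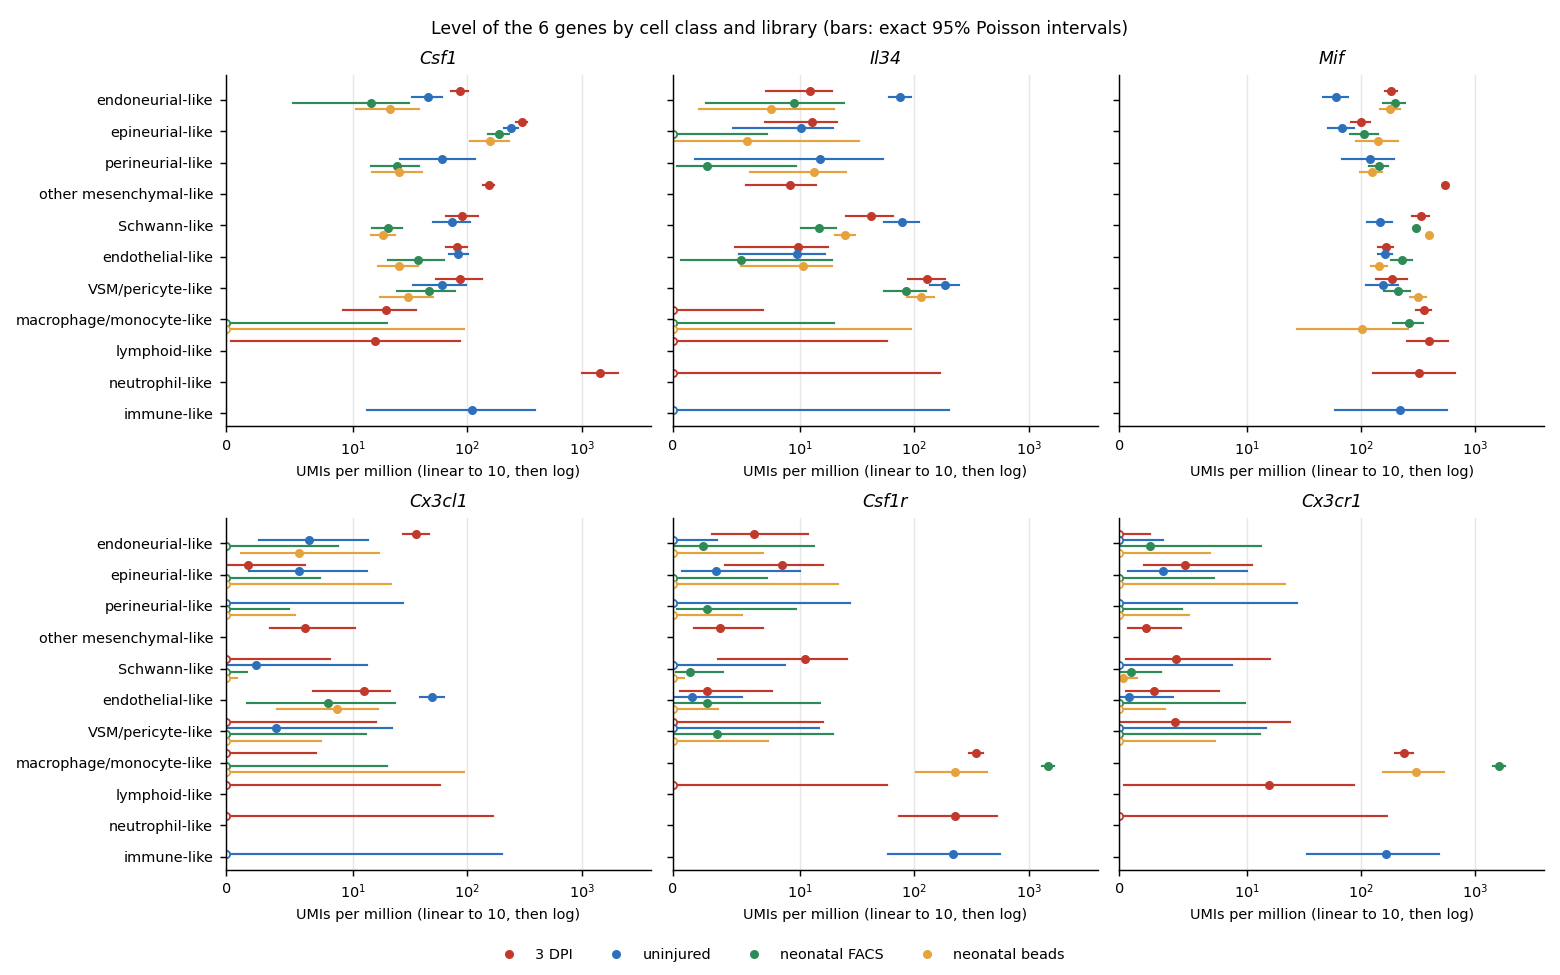
Level of each of the 6 genes by cell class. The horizontal axis gives CPM (linear up to 10 and logarithmic beyond), points are the 4 libraries, bars are exact 95% Poisson intervals and open points mark 0 UMIs. The neonatal beads points of the macrophage/monocyte-like class are of mixed immune cells. Epineurial-like cells are highest for Csf1 among the non-immune classes, with 298 CPM at 3 DPI, VSM/pericyte-like cells are highest for Il34, and the receptors Csf1r and Cx3cr1 are concentrated in immune cells.

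The highest Csf1 level of any class was that of the 40 neutrophil-like cells at 3 DPI. It was 1457 CPM (996 to 2057), from 32 UMIs in 13 cells (32.5%, 18.6 to 49.1). Of these cells, 8 held 2 UMIs or more, and the highest held 6. The level was 4.89 times that of epineurial-like cells (3.29 to 7.03), and 1208 CPM (789 to 1771) without the cell with the most Csf1 UMIs. The class was named from S100a8, S100a9, Retnlg and Mmp9, which were all found and together made up 45388 CPM. It was shallow, with a median of 442 UMIs per cell, and it held 3.07% of the Csf1 UMIs of the library because there were few such cells. Macrophage/monocyte-like cells held 19.3 CPM of Csf1 at 3 DPI (9.27 to 35.5, 10 UMIs) and none in the 80 cells of the neonatal FACS library, where a floor of 3 counts is a share of 3.75% of cells with a UMI.

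Il34 had another order of classes. It was highest in VSM/pericyte-like cells, the contractile cells of vessel walls, in all 4 libraries. Their level was 130 CPM at 3 DPI (87.8 to 186, 30 UMIs in 79 cells), 187 in uninjured nerve (137 to 248, 47 UMIs in 183 cells), 84.7 in the neonatal FACS library (54.3 to 126) and 114 in the neonatal beads library (86.3 to 148). In uninjured nerve, Schwann-like cells at 79.0 CPM (54.4 to 111) and endoneurial-like cells at 75.9 (60.3 to 94.4) followed, and did not differ beyond their intervals. All other uninjured classes were at 14.9 CPM or lower. No Il34 UMI was found in an immune cell of any library. At 3 DPI these included 402 macrophage/monocyte-like cells at a median of 977 UMIs. The exact interval of their share of cells with an Il34 UMI, not of cells expressing it, reached up to 0.913%.

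The VSM/pericyte-like cells formed 1 cluster in each data set at the main resolution, and 2 or more in uninjured and neonatal nerve at a resolution of 0.8. There, 85 uninjured cells led by Ifitm1 and Rgs5, with Kcnj8 and Abcc9 among their 10 leading genes, held 345 CPM of Il34 (237 to 484). Rgs5, Kcnj8 and Abcc9 are known from pericytes. The 98 cells led by Pln, Olfr558 and Myh11, of which Pln and Myh11 are genes of contractile smooth muscle, held 89.8 CPM (49.1 to 151). In the neonatal beads library, the cells led by Higd1b, Steap4 and Rgs5 held 188 CPM (137 to 252, 186 cells) and those led by Nrip2 and Fbxl22, with Myh11 among their 10 leading genes, held 20.6 (4.26 to 60.3, 120 cells). A further cluster led by Actg2 and Colec11 held 81.1 CPM in the beads (37.1 to 154, 64 cells) and 15.9 in the FACS library (0.402 to 88.5, 25 cells). The cluster led by Higd1b held 111 CPM in the neonatal FACS library (70.2 to 166, 97 cells). The 79 cells at 3 DPI stayed together, led by both Rgs5 and Myh11, so the mixture of the 2 kinds at 3 DPI is not known and the class levels at 3 DPI and in uninjured nerve may rest on different mixtures.

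**Figure D2:**
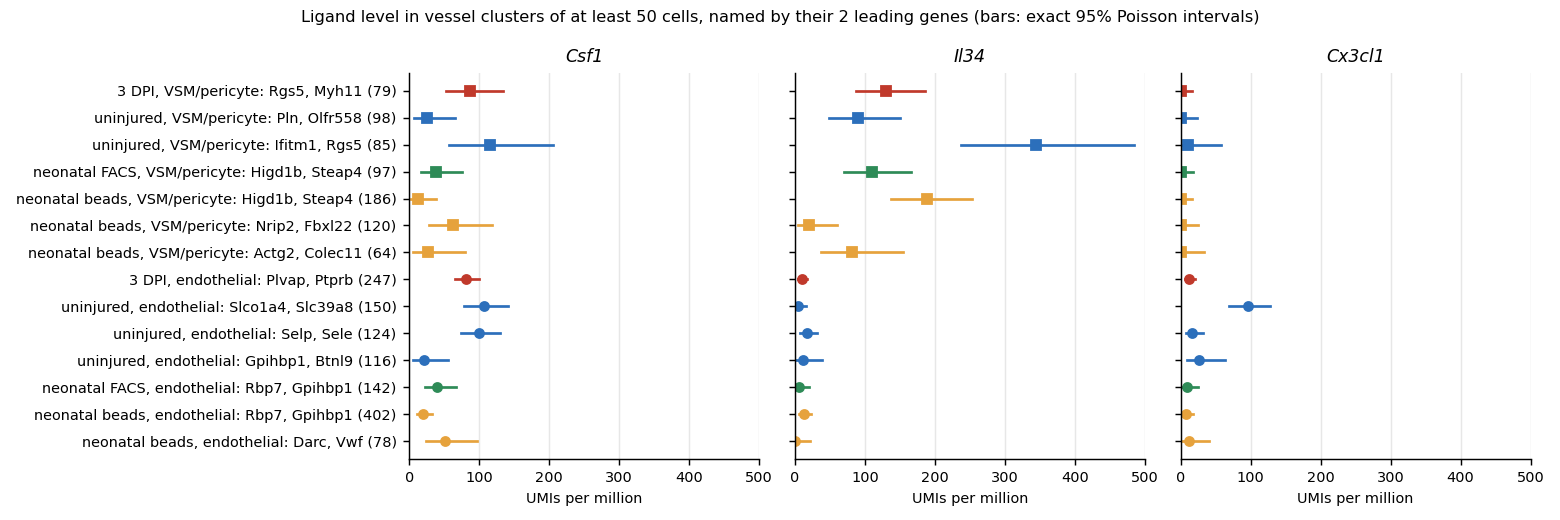
Csf1, Il34 and Cx3cl1 in the vessel clusters of at least 50 cells at a resolution of 0.8, in CPM with exact 95% Poisson intervals. Squares are VSM/pericyte-like and circles endothelial-like clusters, each labelled with its library, its 2 leading genes and its number of cells. Il34 is highest in the uninjured Ifitm1 and Rgs5 cluster at 345 CPM, and Cx3cl1 in the uninjured endothelial-like cluster led by Slco1a4 at 95.6 CPM.

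The endoneurial-like cells, which are the fibroblasts among the axons, carried the clearest differences between 3 DPI and uninjured nerve. Il34 was 12.2 CPM at 3 DPI (19 UMIs in 283 cells) and 75.9 in uninjured nerve (81 UMIs in 419 cells), a ratio of 0.161 (0.0920 to 0.267). Csf1 was 86.0 CPM (134 UMIs) and 45.0 CPM (48 UMIs), a ratio of 1.91 (1.365 to 2.72). Il34 UMIs were found in 5.30% of endoneurial-like cells at 3 DPI and 14.3% in uninjured nerve, although the median depth was 4763 UMIs at 3 DPI and 2157 in uninjured nerve. At 500 UMIs per cell the shares were 0.380% (0.00963 to 2.1, 1 UMI) and 3.15% (1.69 to 5.32, 14 UMIs), with overlapping intervals. Neonatal endoneurial-like cells held Il34 at 9.57 CPM in the FACS library and 7.73 in the beads library, from 4 UMIs each.

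Of all Csf1 and Il34 UMIs of endoneurial-like cells, 37.2% were of Csf1 in uninjured nerve (28.9 to 46.2) and 87.6% at 3 DPI (81.3 to 92.4). This share is set here against the same share in other cells, since the 2 genes may be captured with unequal efficiency. It was 24.2% in uninjured (14.2 to 36.7) and 40.0% in 3 DPI VSM/pericyte-like cells (26.4 to 54.8), and 48.4% (35.8 to 61.3) and 68.3% (55.0 to 79.7) in Schwann-like cells, with overlapping intervals in both classes. In epineurial-like cells it was 95.9% and 95.8%, and in endothelial-like cells 89.5% and 89.1%. Over all cells the share was 69.7% in uninjured nerve, 90.0% at 3 DPI, 74.5% in the neonatal FACS library and 48.4% in the neonatal beads library. These totals also hold the mixture of cells recovered, as Schwann-like cells were 67.8% of the neonatal beads cells and 6.49% of those at 3 DPI.

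Outside the endoneurial-like cells, differences of Csf1 and Il34 between 3 DPI and uninjured nerve were smaller. The ratio of Csf1 was 1.24 in epineurial-like (1.04 to 1.47), 1.22 in Schwann-like (0.748 to 2.02), 0.964 in endothelial-like (0.722 to 1.285) and 1.455 in VSM/pericyte-like cells (0.708 to 3.055). The epineurial-like interval lies above 1, but the median ratio over the 9023 genes tested in that class was 1.096, and among cells thinned to 500 UMIs the ratio was 0.829, from 52 and 56 UMIs. The ratio of Il34 was 0.532 in Schwann-like cells (0.286 to 0.964), with 42.05 CPM at 3 DPI from 19 UMIs and 79.0 CPM in uninjured nerve from 33, and in thinned cells it was 1.36, from 5 and 10 UMIs. It was 0.697 in VSM/pericyte-like (0.425 to 1.125), 1.25 in epineurial-like (0.5125 to 3.24) and 1.01 in endothelial-like cells (0.408 to 2.43).

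**Figure D3:**
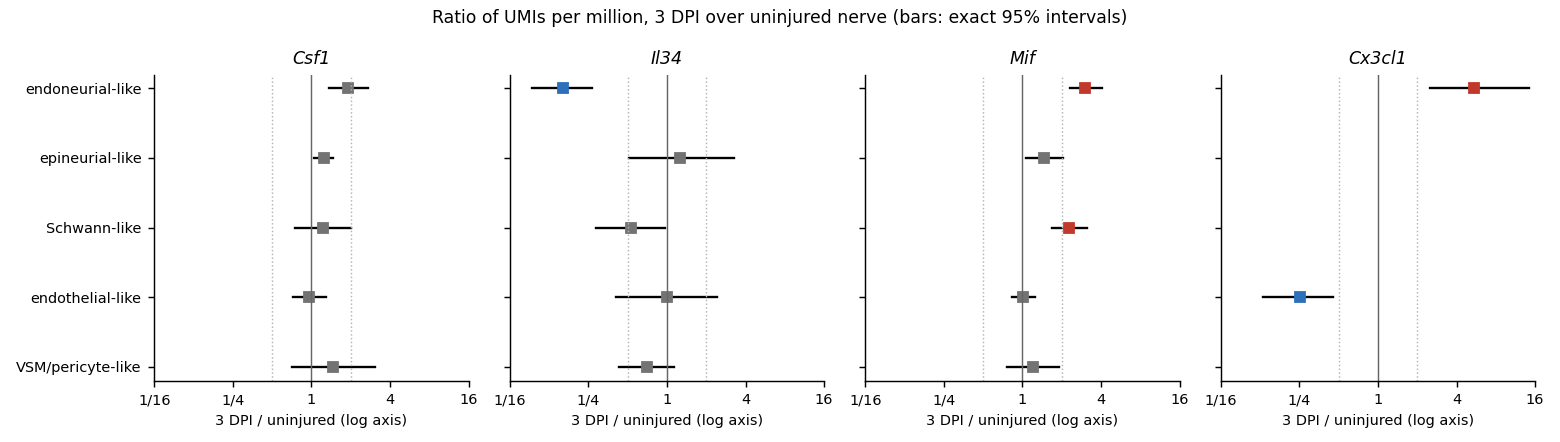
Ratio of the level at 3 DPI to that in uninjured nerve for the 4 ligands in 5 classes, on a logarithmic axis, with exact 95% intervals. Only pairs with at least 20 UMIs in the 2 libraries together are drawn. Dotted lines mark 2-fold, red squares are ratios of at least 2 and blue squares ratios of at most 0.5. In endoneurial-like cells Il34 is at 0.161 and Cx3cl1 at 5.48, and in endothelial-like cells Cx3cl1 is at 0.252.

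The level of Cx3cl1 over all UMIs was highest in endothelial-like cells in uninjured nerve and in endoneurial-like cells at 3 DPI. In endothelial-like cells, which line the vessels, it was 49.7 CPM in uninjured nerve (38.4 to 63.2, 66 UMIs in 420 cells) and 12.5 at 3 DPI (6.85 to 21.02, 14 UMIs in 247 cells), a ratio of 0.252 (0.131 to 0.454). In endoneurial-like cells it was 6.56 CPM in uninjured nerve (2.64 to 13.5, 7 UMIs) and 35.95 at 3 DPI (27.2 to 46.7, 56 UMIs in 42 cells), a ratio of 5.48 (2.49 to 14.25). The 42 cells were deep, with a median of 9182 UMIs against 3530 in the others. At 500 UMIs per cell, 1.52% of endoneurial-like cells at 3 DPI (4 UMIs) and 0.242% in uninjured nerve (1 UMI) held a Cx3cl1 UMI. In endothelial-like cells the shares were 2.84% and 1.45%, so at this depth 3 DPI endothelial-like cells held no less than endoneurial-like ones, and the order of the libraries turned, to a ratio of 1.68 (0.466 to 5.83) from 6 and 7 UMIs, an interval that holds both directions. Other mesenchymal-like cells at 3 DPI held 6.27 CPM (3.51 to 10.3), and epineurial-like cells 1.72 at 3 DPI and 5.74 in uninjured nerve. Schwann-like cells held a single Cx3cl1 UMI over all 4 libraries, in uninjured nerve, and immune cells held none. The neonatal libraries held 3 and 12 Cx3cl1 UMIs in all, of which 3 and 9 were in endothelial-like cells at 8.02 and 8.77 CPM.

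At the main resolution, the uninjured endothelial-like cells fell into 3 clusters with unequal Cx3cl1. The 150 cells led by Slco1a4, Slc39a8 and Spock2, with Cldn5 and Abcb1a among their leading genes, held 44 of the 66 UMIs at 95.6 CPM (69.5 to 128). Cldn5 and Abcb1a encode a tight junction protein and an efflux pump of barrier vessels. The 146 cells led by Rbp7 and Gpihbp1 held 38.8 CPM (20.7 to 66.4) and the 124 cells led by Selp and Sele, adhesion molecules of venules, held 16.9 (7.71 to 32.0). The 247 cells at 3 DPI formed 1 cluster. The 10 leading genes of the Slco1a4 cluster summed to 6490 CPM over all uninjured endothelial-like cells and 966 at 3 DPI, a ratio of 0.149 (0.1395 to 0.1585), and each of the 10 was lower at 3 DPI. The sum was 0.5695 times the uninjured one (0.5365 to 0.604) for the Rbp7 cluster and 1.065 times (1.037 to 1.094) for the Selp cluster. These genes were chosen after their clusters were seen, as the genes highest in clusters of uninjured cells alone. Such a choice favours lower levels at 3 DPI, which the intervals do not cover. The part of the lower level of this set of genes in the lower Cx3cl1 of endothelial-like cells was not tested.

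Mif was found in every class of every library. At 3 DPI it was highest in other mesenchymal-like cells, at 545 CPM (515.5 to 575, 1303 UMIs in 483 cells). Its dividing cluster held 749 CPM (701 to 799) and the Dlk1 cluster 334 (301 to 368). In endoneurial-like cells Mif was 182 CPM at 3 DPI (283 UMIs) and 60.0 in uninjured nerve (64 UMIs), a ratio of 3.03 (2.30 to 4.04). In Schwann-like cells it was 332 CPM (150 UMIs) and 146 (61 UMIs), a ratio of 2.27 (1.68 to 3.11), which was 1.198 in cells thinned to 500 UMIs, from 11 and 25 UMIs. The ratio was 1.46 in epineurial-like (1.06 to 2.04, and 0.755 in thinned cells from 11 and 13 UMIs), 1.203 in VSM/pericyte-like (0.762 to 1.91) and 1.01 in endothelial-like cells (0.828 to 1.24). Neonatal levels in endoneurial-like cells were 196 CPM in the FACS library and 179.7 in the beads library, with intervals that overlap that of 3 DPI. Neonatal Schwann-like cells held 305 CPM in the FACS library (282.5 to 329) and 392.3 in the beads library (373 to 412), and within the beads library those led by Cdkn1c and Pou3f1, a regulator of premyelinating cells, held 614 (556 to 677), while the same cluster in the FACS library held 312 (231 to 413), a level like that of all Schwann-like cells there. The Mif counts are uncertain, because RefSeq lists 7 Mif pseudogenes, none of which has a row of that name in the count tables, and reads shared with them could have been counted or lost.

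Counted over the 5 classes, 17 of the 30 pairs of gene and class had at least 20 UMIs in the 2 adult libraries together, all of them ligands. Of these, 3 were at least 2-fold higher at 3 DPI and 2 at most 0.5 of the uninjured level. Past 2-fold in thinned cells, with fewer UMIs, were neither Mif in Schwann-like cells (1.198) nor, in the same direction, Cx3cl1 in endothelial-like cells (1.678). In endoneurial-like cells, Mif and Cx3cl1 were among the higher and Il34 among the lower of 4 genes tested, where 17.6% of all tested genes were higher and 8.52% lower by the same rule. In Schwann-like cells Mif was higher of 3 tested, beside 18.4% of all genes higher and 14.1% lower. In endothelial-like cells Cx3cl1 was lower of 4 tested, beside 7.7% of all genes higher and 6.03% lower. None of 3 passed 2-fold in epineurial-like cells (8.6% of all genes higher, 3.03% lower) or in VSM/pericyte-like cells (13.5% higher, 10.8% lower). The median ratio over all tested genes was 1.174 in endoneurial-like cells, 1.096 in epineurial-like, 1.1 in Schwann-like, 1.024 in endothelial-like and 1.059 in VSM/pericyte-like cells. Divided by these medians, the same 3 ratios were at least 2 and Il34 in Schwann-like cells, at 0.484, joined the lower ones.

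**Figure D4:**
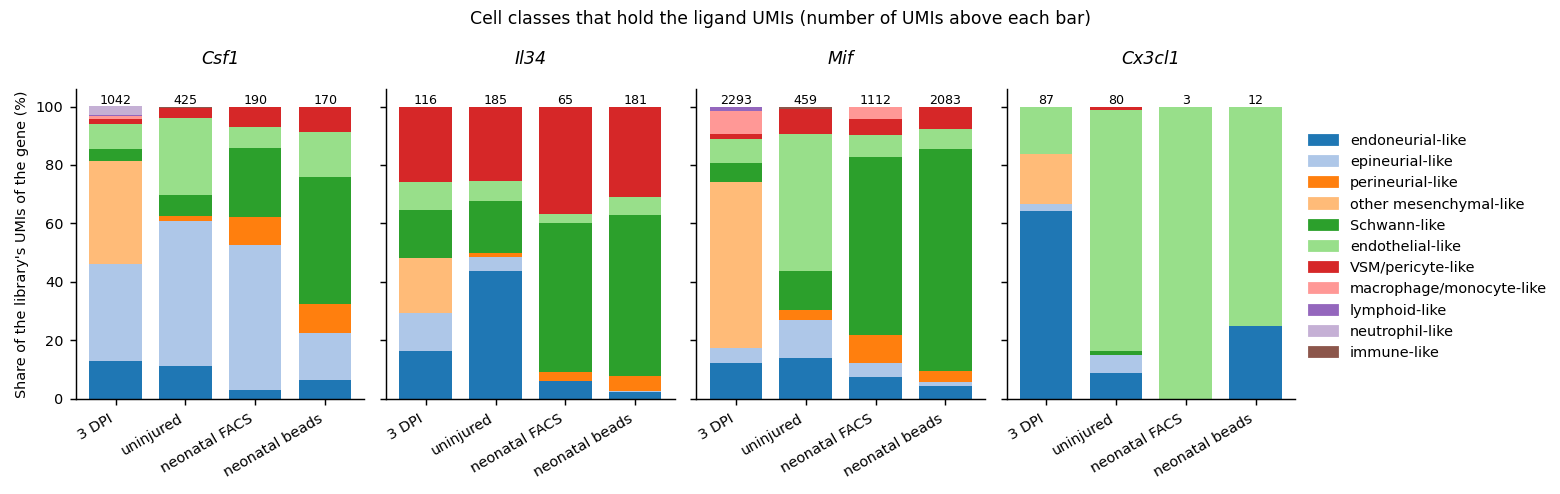
Share of each library's UMIs of a ligand gene that each cell class holds, in percent, with the number of UMIs above each bar. Endothelial-like cells hold 82.5% of Cx3cl1 UMIs in uninjured nerve and endoneurial-like cells 64.4% at 3 DPI, and mesenchymal classes hold 81.4% of Csf1 UMIs at 3 DPI.

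The classes that supplied the ligand mRNA of each library followed from these levels and from the cells recovered. Of 1042 Csf1 UMIs at 3 DPI, the mesenchymal classes held 81.4% (78.9 to 83.7), where they made up 68.0% of all UMIs. Of 425 in uninjured nerve they held 62.6% (57.8 to 67.2) with 50.7% of all UMIs, and epineurial-like cells alone held 49.4%. Of 185 Il34 UMIs in uninjured nerve, endoneurial-like cells held 43.8% (36.5 to 51.2) and VSM/pericyte-like cells 25.4%. At 3 DPI, 116 Il34 UMIs were spread over the classes, with 25.9% in VSM/pericyte-like cells that were 3.61% of the cells. In the neonatal libraries Schwann-like cells, the most numerous class, held 50.8% of Il34 UMIs (FACS) and 55.2% (beads), and of Csf1 UMIs 23.7% and 43.5%, against 62.1% and 32.4% in the mesenchymal classes. Endothelial-like cells held 82.5% of Cx3cl1 UMIs in uninjured nerve (72.4 to 90.1) and 16.1% at 3 DPI (9.09 to 25.5), where endoneurial-like cells held 64.4% (53.4 to 74.4). Mif came for 56.8% from other mesenchymal-like cells at 3 DPI, for 47.1% from endothelial-like cells in uninjured nerve, and for 60.97% and 75.7% from Schwann-like cells in the neonatal FACS and beads libraries. Immune classes held 9.38% of Mif and 4.13% of Csf1 UMIs at 3 DPI.

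The receptors were read in the immune cells. At 3 DPI these formed 402 macrophage/monocyte-like, 75 lymphoid-like and 40 neutrophil-like cells. The macrophage/monocyte-like cells had UMIs of 7 of the 8 listed markers, and Adgre1 is not listed under that symbol. Uninjured nerve gave 17 immune-like cells that were not divided. Their summed neutrophil markers were at 5020 CPM, macrophage/monocyte markers at 3929 and lymphoid markers at 1255. Mesenchymal markers were higher than each of these, at 7858 CPM. In uninjured endothelial-like, VSM/pericyte-like and Schwann-like cells mesenchymal markers were at 1030, 1291 and 2033 CPM. The part of mesenchymal RNA in the values of the 17 cells was not tested. The neonatal immune cells formed 1 cluster, led by the mast cell genes Cma1, Tpsb2 and Cpa3 and then by Lyz2, Pf4 and C1qa. It held 80 cells of the FACS library, with macrophage/monocyte markers at 15721 CPM and mast cell markers at 3735, and 38 of the beads library, with macrophage/monocyte markers at 7069, mast cell markers at 64787 and neutrophil markers at 48502 CPM. Of the cells, 3 of 80 and 10 of 38 held at least 3 mast cell marker UMIs. The markers of the beads cells go against a macrophage/monocyte name, so they are called immune cells here and their receptor values are given without a comparison.

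Csf1r was 348 CPM in macrophage/monocyte-like cells at 3 DPI (299 to 402.5, 180 UMIs in 119 cells) and 1475 in those of the neonatal FACS library (1304 to 1661, 272 UMIs in 63 cells), a ratio of 4.24 (3.50 to 5.15). The shares of cells were 29.6% (25.2 to 34.3) and 78.8% (68.2 to 87.1), and 15.2% and 46.6% at 500 UMIs per cell. Cx3cr1 was 239.6 CPM at 3 DPI (199 to 286, 124 UMIs in 71 cells) and 1605 in the neonatal FACS library (1427 to 1798, 296 UMIs in 62 cells), a ratio of 6.70 (5.41 to 8.33), with 17.7% (14.1 to 21.8) and 77.5% (66.8 to 86.1) of cells, or 9.74% and 52.1% at 500 UMIs. Age, injury and preparation all differ between these libraries and cannot be told apart. The cells under this class name were also unlike in their markers. C1qa, C1qb, C1qc and Mrc1 summed to 1874 CPM at 3 DPI and 12615 in the neonatal FACS library. Monocyte markers summed to 2471 and 287 CPM. The part of such differences between the cells in the receptor ratios was not tested. The uninjured immune-like cells held 4 Csf1r UMIs in 3 cells and 3 Cx3cr1 UMIs in 3 cells, at 218 CPM (59.5 to 559) and 164 CPM (33.8 to 478). The neonatal beads cells held 227 CPM of Csf1r (104 to 431, 9 UMIs) and 303 of Cx3cr1 (157 to 529, 12 UMIs). When only immune cells with at least 3 macrophage marker UMIs, and more of these than of mast cell, neutrophil and lymphoid markers together, were taken, Csf1r was 363 CPM at 3 DPI (346 cells), 1514 in the neonatal FACS library (75 cells), 726.5 in uninjured nerve (198 to 1860, 5 cells) and 732.5 in the neonatal beads library (316 to 1443, 14 cells). Cx3cr1 was 256, 1648, 545 and 1007 CPM in the same cells.

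The 2 receptors were not spread evenly over the macrophage/monocyte-like cells at 3 DPI. A sub-cluster of 241 cells led by Cd74, H2-Eb1 and Ly86, of which Cd74 and H2-Eb1 act in antigen presentation, held 506 CPM of Csf1r (422 to 602) and 387 of Cx3cr1 (313.5 to 472). A sub-cluster of 161 cells led by Gpnmb, F7 and Mmp12, genes known from phagocytic macrophages, held 199 CPM of Csf1r (149 to 260) and 101.3 of Cx3cr1 (66.7 to 147). The ratio between the sub-clusters was 2.55 for Csf1r (1.83 to 3.58) and 3.82 for Cx3cr1 (2.47 to 6.085). Monocyte markers were higher in the sub-cluster led by Cd74, at 4384 CPM with Ccr2 at 2869, than in that led by Gpnmb, at 671, dendritic cell markers were at 394.5 and 15 CPM, and mast cell markers at 8185 and 30 CPM. The part of these other cells in the difference was not tested. Mif had the opposite order, with 551 CPM in the Gpnmb sub-cluster (466 to 648) and 143.5 in the Cd74 sub-cluster (100.5 to 199). Markers of resident tissue macrophages (Lyve1, Folr2, Cd163 and Timd4) summed to 147 CPM at 3 DPI and 1767 in the neonatal FACS library.

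**Figure D5:**
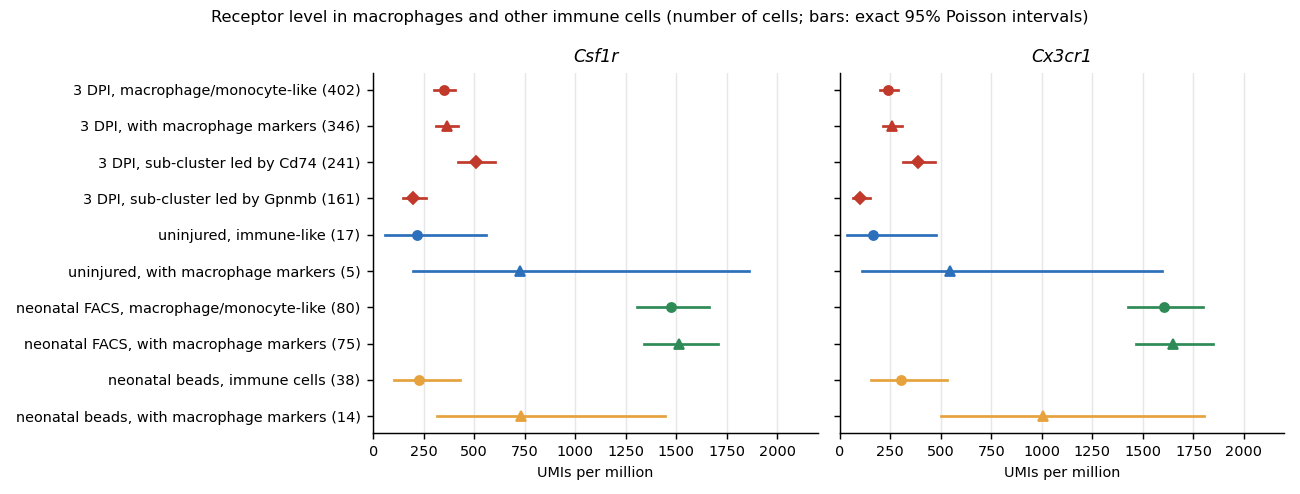
Csf1r and Cx3cr1 in macrophages and other immune cells, in CPM with exact 95% Poisson intervals and the number of cells in parentheses. Circles are classes, triangles immune cells picked by macrophage marker UMIs, and diamonds the sub-clusters at 3 DPI. The neonatal FACS cells are highest with 1475 CPM of Csf1r and 1605 of Cx3cr1, and at 3 DPI the sub-cluster led by Cd74 is above the one led by Gpnmb.

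Some cells held both receptors. At 3 DPI, 35 of 402 macrophage/monocyte-like cells had UMIs of Csf1r and of Cx3cr1, where 21 would be found if they fell independently, 84 had Csf1r alone and 36 Cx3cr1 alone. In the neonatal FACS library 55 of 80 had both, with 48.8 under independence, and in uninjured and neonatal beads immune cells 1 of 17 and 3 of 38 had both. Deeper cells hold more of any gene, and this count was not set at equal depth.

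Receptor UMIs outside the immune cells were few. At 3 DPI, macrophage/monocyte markers were at 170 to 210 CPM in every non-immune class, and in uninjured nerve at 24.1 or lower. For each 100 of these marker UMIs, macrophage/monocyte-like cells at 3 DPI held 1.90 Csf1r UMIs (1.63 to 2.20) and all non-immune classes together 2.72 (1.91 to 3.74, 37 UMIs). For Cx3cr1 the values were 1.31 (1.09 to 1.56) and 1.25 (0.727 to 1.997, 17 UMIs). In the neonatal FACS library they were 9.38 (8.30 to 10.6) and 8.25 (3.56 to 16.25) for Csf1r and 10.2 (9.08 to 11.4) and 3.09 (0.638 to 9.04) for Cx3cr1. Each pair of intervals overlaps, except that the Cx3cr1 pair of the neonatal FACS library does not. The part of free RNA in the receptor UMIs outside immune cells was not tested. Immune cells held 83.3% of Csf1r and 88.0% of Cx3cr1 UMIs at 3 DPI, and 97.1% and 99.0% in the neonatal FACS library. In uninjured nerve they held 4 of 9 Csf1r UMIs (44.4%) and 3 of 7 Cx3cr1 UMIs (42.9%). In the neonatal beads library they held 9 of 9 and 12 of 13. Neutrophil-like cells held 5 Csf1r UMIs in 3 of 40 cells, or 7.35 for each 100 macrophage/monocyte marker UMIs (2.39 to 17.2), above the value of macrophage/monocyte-like cells.

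Other genes of these signals were counted as lists of 25 genes in all, which were tested in 61 pairs of gene and class. Of these pairs, 18 were at least 2-fold higher at 3 DPI and 2 were at most 0.5, against the background shares given above. By class, 6 of 14 tested were higher in endoneurial-like (17.6% of all genes) and 5 of 13 in epineurial-like cells (8.6%). In Schwann-like cells 2 of 9 were higher (18.4%), in endothelial-like 4 of 18 (7.7%) and in VSM/pericyte-like 1 of 7 (13.5%). The higher pairs repeat a few genes, and pairs of the same gene are not independent. Cd44 was higher in all 5 classes. Cd74, Ctss and Tyrobp, whose highest levels were in immune cells, were each higher in endoneurial-like, epineurial-like and endothelial-like cells. The 2 lower pairs, named after their values were seen, were Ddt, the homolog of MIF, in Schwann-like cells at 0.431 (0.149 to 1.12) and Plcg2 in endothelial-like cells at 0.45 (0.225 to 0.852).

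Among the MIF receptors, Cd44, a partner of CD74 in MIF signalling and a receptor for hyaluronan, was higher in all 5 classes. Its ratio ran from 3.93 (2.08 to 7.97) in endothelial-like to 6.43 (4.22 to 10.2) in Schwann-like and 11.6 (3.64 to 59.4) in VSM/pericyte-like cells, the last from 32 and 3 UMIs. Cd74, the MHC class II invariant chain and MIF receptor, was at 7690 CPM in macrophage/monocyte-like cells at 3 DPI, and its ratio was 3.74 in endoneurial-like, 5.57 in epineurial-like, 2.025 in endothelial-like and 0.693 in Schwann-like cells (0.299 to 1.56), beside the macrophage marker UMIs outside immune cells described above. Ctss, a protease that can release CX3CL1, and Tyrobp, an adaptor of macrophage receptors, were at 4821 CPM in macrophage/monocyte-like cells and 3096 CPM in neutrophil-like cells, and were also higher in endoneurial-like, epineurial-like and endothelial-like cells, where they were at most 30.8 CPM. The part of free RNA in these differences was not tested. Ackr3, a decoy receptor for chemokines that also binds MIF, was highest in epineurial-like cells at 384 CPM in uninjured nerve and 362 at 3 DPI.

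Of the other binders of IL-34, Sdc1, a heparan sulfate proteoglycan, was highest in the uninjured VSM/pericyte-like cells that also held the highest Il34 level, at 485 CPM (403 to 579), with 377 at 3 DPI. In Schwann-like cells it was 113 CPM at 3 DPI from 51 UMIs and 7.18 in uninjured nerve from 3, a ratio of 15.7 (5.08 to 78.7). Ptprz1, a receptor phosphatase, had 14 and 10 UMIs in Schwann-like cells, a ratio of 1.29 (0.535 to 3.26). Of the proteases that release CX3CL1, Adam17 was 72.5 CPM at 3 DPI and 31.9 in uninjured endoneurial-like cells, a ratio of 2.28 (1.54 to 3.45), and Adam10 had a ratio of 1.46 (1.02 to 2.13) there. Of the other colony stimulating factor genes, none of 5 tested pairs passed 2-fold. Csf3r, the receptor of granulocyte colony stimulating factor, was 1457 CPM in neutrophil-like cells, and Csf2rb, a subunit of receptors for GM-CSF, was 335 CPM in endothelial-like cells at 3 DPI and 172 in uninjured nerve, a ratio of 1.94 (1.64 to 2.30).

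Over 29 units of class and library with at least 30 cells, the genes whose levels were most like those of a member were taken from 13153 genes by the Pearson correlation of log2(CPM + 10). The units share libraries and differ in depth, and the correlations are a description. Outside the immune classes Csf1r was at most 11.1 CPM and Cx3cr1 at most 5.17, so the correlations of these 2 receptors rest on the few immune units. Those of Cx3cl1 also rest on few units. It was above 10 CPM only in uninjured endothelial-like cells (49.7) and in 3 DPI endoneurial-like (35.95) and endothelial-like cells (12.5). Csf1r was most like AF251705 (r = 0.98), Clec4a2 (0.977) and Tbxas1 (0.975), and Cx3cr1 most like Folr2 (0.981), C3ar1 (0.981) and C1qc (0.98). Il34 was most like Cystm1 (0.906), Atp1b2 (0.898) and Pde1a (0.888), and Cx3cl1 most like Car4 (0.848), Cecr2 (0.799) and Cytl1 (0.77). Csf1 was most like Rc3h2 (0.799), Sntb2 (0.785) and Has2os (0.773), and Mif most like Dnajc2 (0.774), Bola2 (0.757) and Ncl (0.742). Between the members, the highest correlation was that of Csf1r and Cx3cr1 (0.874), and that of the CSF1R ligands Csf1 and Il34 was 0.044.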

How the data were processed

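Gene counts per cell barcode were analysed as the authors deposited them: UMI counts from Drop-seq, made by the authors with reads aligned to the mouse genome (mm10, per the submitters' processing notes), with no normalization. The sources used here do not give strand and multi-mapping settings. Barcodes with at least 200 genes, at most 10% mitochondrial and at most 5% hemoglobin UMIs were kept, and in each library the 5% with the highest doublet scores (scanpy 1.11.5) were removed. Cells were normalized with scran 1.30.0 and clustered in Seurat 5.3.0 (2000 variable genes without the 6 members, the pathway genes and mitochondrial and hemoglobin genes, 20 components, resolution 0.4), each adult library alone and the neonatal libraries together. Immune cells were clustered again with 1000 variable genes. A name needed at least 3 detected markers. The naming thresholds were set after the clusters were seen, and the members, marker lists and pathway lists were chosen with earlier results of these data known.

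Counts were summed per class and library. With 1 library per group no test was made. Levels have exact Poisson, shares Clopper-Pearson and ratios conditional binomial 95% intervals (scipy 1.17.1), which cover counting error only. Those of ratios were run on simulated Poisson counts, the model they assume, without spread between cells. That run checks the computation, and cannot show how well the intervals hold for these cells. A ratio was counted where both groups together held at least 20 UMIs, and called at 2-fold. All 6 members were named, as were for each the 3 genes most like it among genes with at least 50 UMIs. Pathway genes were counted whole, and those with the highest levels were to be named. Others were named after their values were seen. The libraries held 8123103 (3 DPI), 4513814 (uninjured), 5110171 (neonatal FACS) and 7634799 (neonatal beads) UMIs in 2500, 2000, 2500 and 6200 barcodes.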

Additional observations from a re-analysis of the deposited data

Results flagged for a closer look

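The ratio of Cx3cl1 between 3 DPI and uninjured nerve was 5.479 in endoneurial-like cells and 0.2523 in endothelial-like cells, which lie on opposite sides of 1. The intervals of 2.49 to 14.25 and 0.131 to 0.454 do not overlap and cover counting error only. In thinned cells the opposite directions were not seen, as Cx3cl1 was higher at 3 DPI in both classes. Endothelial-like cells then held 56.87 CPM at 3 DPI and 33.9 in uninjured nerve, from 6 and 7 UMIs. Endoneurial-like cells held 30.42 and 4.843 CPM, from 4 and 1 UMIs. These UMIs are too few to settle the direction in endothelial-like cells. With 1 library in each condition the difference between the classes was not tested.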

How the results depend on the processing

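Each ratio and receptor level was computed again with another normalization, resolution, gene minimum, mitochondrial limit, doublet rule, set of variable genes, neonatal clustering and averaging, and in cells thinned to 500 UMIs. Of 176 alternatives for 18 ligand ratios, 167 stayed within the main interval, as did 67 of 74 for 8 receptor levels. In both the 176 and the 167, 17 are the main ratio entered again where it rested on at least 20 UMIs. These could not move. The counts of calls stayed within 1.5 times under all 14 of their alternatives, which do not include thinning or per-cell means. In thinned cells the ratio of Cx3cl1 in endothelial-like cells reversed to 1.678, and that of Csf1 was 0.8286 in epineurial-like and 0.6042 in VSM/pericyte-like cells (1 and 4 UMIs). There Il34 was 1.361 in Schwann-like cells, and Mif was 2.295 in endoneurial-like, 0.7551 in epineurial-like, 1.198 in Schwann-like and 1.305 in endothelial-like cells, while Cx3cr1 was 142.9 CPM in the neonatal beads cells. Of 180 levels by class, 58 left their main interval in thinned cells and 6 at a resolution of 0.8. The cause was not tested. With the mean of per-cell CPM, Mif was 0.6328 in endothelial-like cells, and Csf1r was 426.4 CPM at 3 DPI and 457.5 in the neonatal beads cells. In immune cells picked by macrophage markers, an alternative chosen after seeing the data, Csf1r was 726.5 CPM in uninjured nerve and 732.5 in the neonatal beads library, and Cx3cr1 544.9 and 1007. With the neonatal libraries clustered alone, the beads library gave no macrophage class and no value. No paired analysis was possible because each condition was 1 library.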
